A study of Mus musculus with 18 samples.

Results

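Cdkn1a, Cdkn2a, Cdkn2b, Trp53, Mdm2, Ccng1, Gdf15, Bax, Phlda3 and Bbc3, which encode p53, its inhibitor, targets of p53 and inhibitors of cell cycle kinases used as signs of senescence, were followed across 18 mouse kidney libraries in 6 groups of 3. They were taken as the rows of the deposited count table with these symbols, 10 of 31787 rows, and each symbol matched 1 row. The kidneys were obstructed by unilateral ureteral obstruction (UUO), a ligation of 1 ureter after which the kidney on that side is injured and scars, or were not obstructed. The series set out to profile fibrotic kidneys after conditional knockout (cKO) of Twist, Snail or Myc.

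The Twist cKO UUO group carried floxed Twist alleles and Cdh5-CreERT2, a Cre that is driven in endothelial cells and activated by tamoxifen. The Snail cKO UUO group carried floxed Snail alleles and the same Cre. The Myc cKO UUO group carried floxed Myc alleles and GGT-Cre, which acts in tubular cells. The WT UUO and contralateral groups each held 2 libraries from mice with Cdh5-CreERT2 and no floxed allele (replicates 1 and 2) and 1 from a Cre-negative mouse with floxed Twist alleles (replicate 3). The contralateral kidneys were the unobstructed kidneys opposite a ligated ureter, and the healthy kidneys came from Cre-negative mice with floxed Twist alleles. The Twist line, which also gave the WT UUO, contralateral and healthy groups, had a mixed background of C57BL6, 129sv and Balb/c. Only C57BL6 and Balb/c are given as the background of the Snail line and the Myc line. The mice were 12 weeks old at the end point, or 11 to 12 weeks in the Myc cKO UUO group. Replicate numbers follow the sample records and have no other meaning. The labels do not name animals. Genotype and the counts of Xist and the Y-linked Ddx3y differ among the 3 libraries of WT UUO and among the 3 contralateral ones, so each of these groups came from 3 mice. Every other group held libraries of both sexes by these counts and so came from at least 2 mice, and whether all 3 libraries were from separate mice is not given.

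p53, encoded by Trp53, is a transcription factor that is held at a low level because MDM2 marks it for degradation, and that is stabilised by DNA damage and other stress. It then raises the transcription of genes that stop the cell cycle, such as Cdkn1a, that trigger death of the cell through mitochondria, such as Bax and Bbc3, or that feed back on p53 itself, such as Mdm2 and Ccng1. Cells that stop dividing for good, as tubular cells of injured kidneys can do, often carry more Cdkn1a, Cdkn2a and Cdkn2b RNA. Each of these genes can answer to signals other than p53.

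The sequences just before the transcription starts of Cdkn1a, Bax, Mdm2 and Ccng1 are shown because they hold a match to the p53 consensus decamer. A full p53 site is a pair of such decamers. They are also shown because these 4 genes did not move alike in WT UUO against healthy kidneys with the scaling used below. Cdkn1a and Bax rose, Ccng1 fell and Mdm2 was slightly lower. Neither Ccng1 nor Mdm2 was lower with plain library totals. Each is the 250 bases before an annotated start, from RefSeq on build GRCm38.p6, read 5′ to 3′ on the strand of the gene. Capitals mark the decamer, and in Bax also a CACGTG near the end of the window.
Cdkn1a (chr17:29090729-29090978, plus strand): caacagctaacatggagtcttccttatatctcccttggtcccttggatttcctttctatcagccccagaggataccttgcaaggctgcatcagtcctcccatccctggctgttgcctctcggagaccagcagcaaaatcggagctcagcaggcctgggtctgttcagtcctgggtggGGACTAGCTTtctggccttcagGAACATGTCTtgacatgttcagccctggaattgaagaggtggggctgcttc
Bax (chr7:45466899-45467148, minus strand): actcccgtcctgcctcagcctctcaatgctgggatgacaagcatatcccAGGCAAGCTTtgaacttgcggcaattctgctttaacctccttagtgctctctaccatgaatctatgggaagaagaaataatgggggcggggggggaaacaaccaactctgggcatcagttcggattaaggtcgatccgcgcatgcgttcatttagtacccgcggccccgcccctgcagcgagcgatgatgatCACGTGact
Mdm2 (chr10:117710759-117711008, minus strand): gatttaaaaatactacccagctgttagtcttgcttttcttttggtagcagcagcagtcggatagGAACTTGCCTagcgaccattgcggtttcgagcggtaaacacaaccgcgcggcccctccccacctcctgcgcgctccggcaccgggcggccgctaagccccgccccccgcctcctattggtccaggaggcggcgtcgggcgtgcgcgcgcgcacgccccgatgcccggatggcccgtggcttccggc
Ccng1 (chr11:40755287-40755536, minus strand): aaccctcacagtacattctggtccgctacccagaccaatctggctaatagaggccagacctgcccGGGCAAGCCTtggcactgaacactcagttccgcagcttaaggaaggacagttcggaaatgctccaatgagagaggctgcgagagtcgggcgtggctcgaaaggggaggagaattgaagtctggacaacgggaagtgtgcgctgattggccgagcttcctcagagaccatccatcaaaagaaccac
Counting the last base before the start as -1, the decamers began at -73 and -51 in Cdkn1a, -201 in Bax, -186 in Mdm2 and -185 in Ccng1. The window before another Cdkn1a start (chr17:29093519-29093768, plus strand) held no decamer match. Whether the marked Cdkn1a decamers form a full site was not tested. The table of promoters held 15 windows for the 10 genes, since some genes have several starts. On either strand the decamer was in 5 of the 15 windows (the 4 above and the Trp53 window) and in 7.13% of 32851 windows of all genes. CACGTG, an E-box that reads the same on both strands and is a known binding sequence of MYC, was in 3 of the 15 windows (Bbc3, Bax and Gdf15) and in 6.02% of all windows, and TGACTCA, the AP-1 sequence, was in 0 of the 15 and in 4.46% of all windows, both strands searched. A match describes the letters only, a single decamer is not a full p53 site, and none of these windows was measured for binding.

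Total counts ranged from 59.5 to 62.0 M in WT UUO, 52.6 to 73.9 M in the 3 knockout groups and 78.1 to 91.3 M in unobstructed kidneys. The 2 mitochondrial ribosomal RNAs took 19.2 to 34.9% of the counts in obstructed kidneys and 44.6 to 50.3% in unobstructed ones. Levels below are therefore CPM, counts divided by a scaled library total, with TMM (trimmed mean of M-values) scaling, which sets the typical gene equal between libraries. With library totals in place of TMM, the median of all genes was 1.07 higher (log2) in the comparison of WT UUO with healthy kidneys, so each change is relative to the typical gene. Kidney markers were present in every library: the summed level of 6 proximal tubule genes was 624 to 3624 CPM in obstructed and 10202 to 14492 CPM in unobstructed kidneys. Of the targeted genes, Twist1 was lower in Twist cKO UUO than in WT UUO (-2.59 ± 0.49, log2 ± SE, edgeR adjusted p = 0.0172), while Snai1 in Snail cKO UUO (-0.61 ± 0.38, adjusted p = 0.487) and Myc in Myc cKO UUO (-0.45 ± 0.23, adjusted p = 0.217) missed the threshold in whole-kidney RNA. Each Cre is restricted to a cell type, and the RNA came from all cells of the kidney piece.

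**Figure D1:**
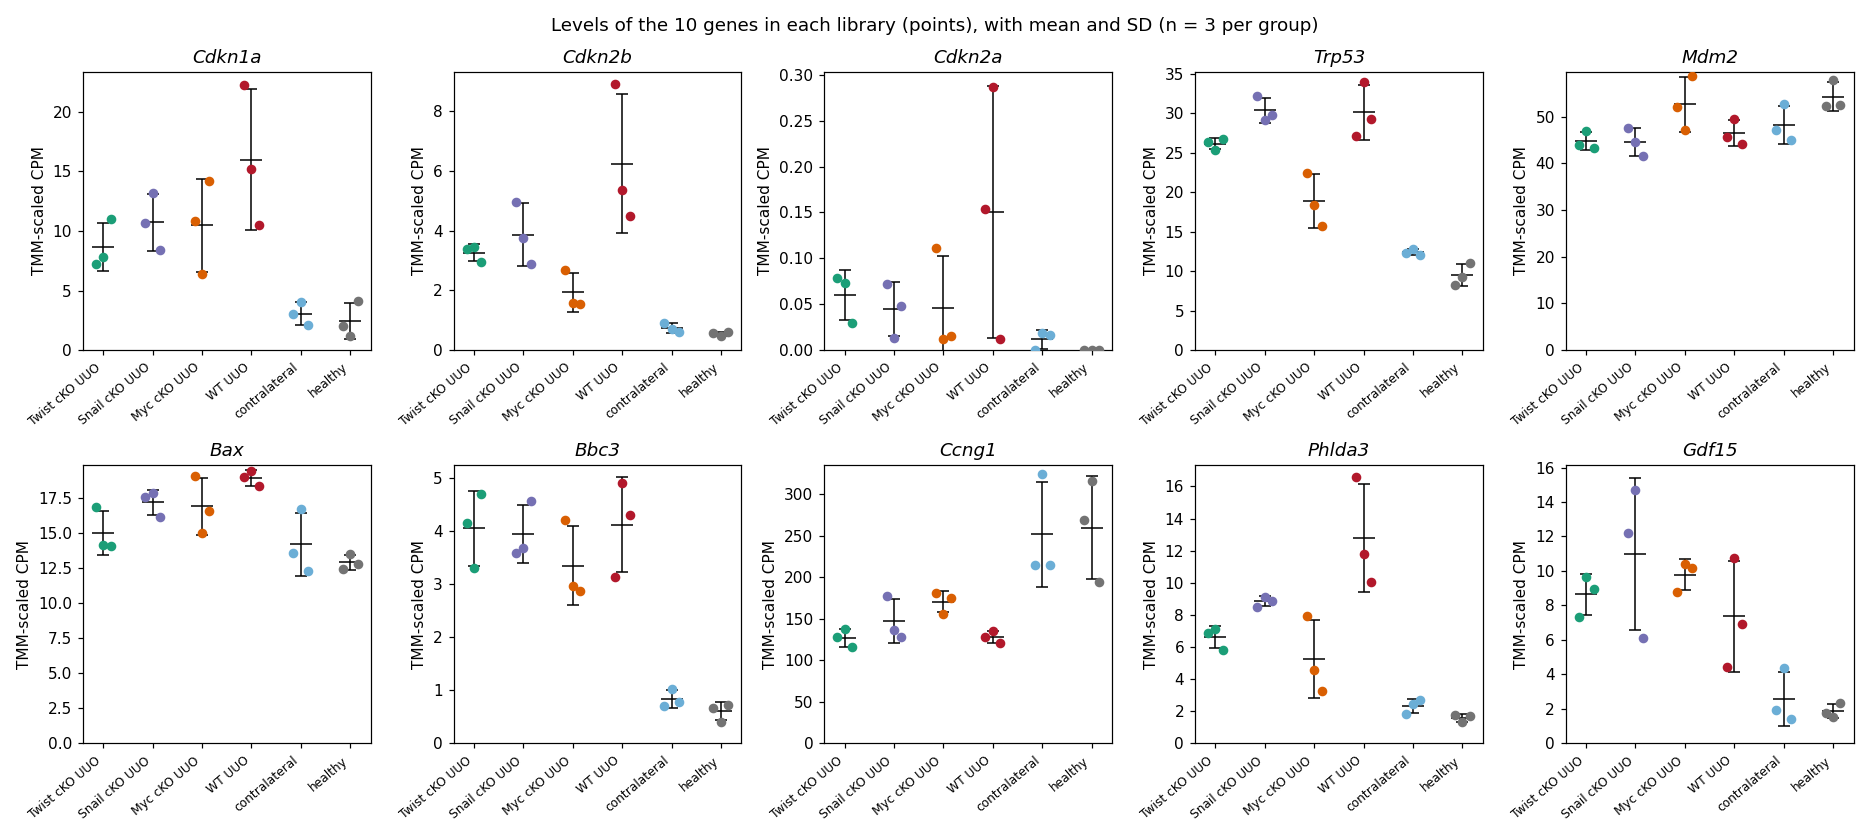
TMM-scaled CPM (y axis, from 0) of each of the 10 genes in the 6 groups (x axis); points are libraries, the short horizontal line is the mean and the bars are the SD (n = 3). Cdkn1a, Cdkn2b, Trp53, Bbc3, Phlda3 and Gdf15 lie higher in obstructed than in unobstructed kidneys, Ccng1 lies lower on this scaling (but at 0.09 on the log2 scale, WT UUO against healthy, with library totals), and Mdm2 stays between 41.6 and 58.7 CPM in all 18 libraries.

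The first question was what obstruction did to these genes. In WT UUO against healthy kidneys 7 of the 9 tested genes rose and 2, Mdm2 and Ccng1, fell with TMM scaling but were at 0.85 and 0.09 (log2) with library totals (edgeR's quasi-likelihood test over all 21050 genes tested, Benjamini-Hochberg adjusted p under 0.05), where 29.2% of all genes rose and 27.1% fell. Cdkn2a did not pass the filter on low counts and was outside this test. The median log2 fold change of the 9 genes was 1.97, against 0.05 over all genes tested. Against contralateral kidneys the same 7 genes rose and 1, Ccng1, fell (0.09 with library totals), where 27.5% of all genes rose and 26% fell. The WT UUO libraries enter both comparisons.

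The inhibitors of cell cycle kinases came first. Cdkn1a (chromosome 17, 29090976 to 29100727, plus strand, GENCODE M21 on GRCm38) encodes p21, the main p53 target that halts the cell cycle. Its level was 22.3, 15.2 and 10.5 CPM in replicates 1, 2 and 3 of WT UUO, 3.04, 4.01 and 2.13 CPM in contralateral and 2.03, 1.21 and 4.09 CPM in healthy kidneys. Every WT UUO library was above every unobstructed one, and the WT UUO libraries themselves spread widely. Cdkn1a rose by 2.70 ± 0.43 (adjusted p = 9.1e-05) on the log2 scale against healthy and by 2.39 ± 0.43 (adjusted p = 0.000257) against contralateral kidneys. Healthy replicate 3 was the highest healthy library, and without it the rise against healthy kidneys was 3.30. A transcript model of uncertain status on the opposite strand lies within Cdkn1a over 1046 bases, and whether the counting used strand is not given in the sources used here.

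Cdkn2b (chromosome 4, 89306299 to 89311039, minus strand) encodes p15, an inhibitor of CDK4 and CDK6 that TGF-beta is known to raise. It had 8.90, 5.35 and 4.50 CPM in WT UUO, 0.905, 0.706 and 0.607 CPM in contralateral and 0.570, 0.471 and 0.605 CPM in healthy kidneys. The groups did not overlap, and WT UUO replicate 1 was again the highest library. The rise of 3.50 ± 0.32 (adjusted p = 4.43e-07) against healthy kidneys was the largest log2 fold change among the 9 tested genes in that comparison. Against contralateral kidneys Cdkn2b rose by 3.08 ± 0.31 (adjusted p = 1.37e-06).

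Cdkn2a (chromosome 4, 89274471 to 89294653, minus strand) is the neighbour of Cdkn2b, 11645 bases away, and encodes both p16, an inhibitor of CDK4 and CDK6, and p19ARF, an inhibitor of MDM2, from starts 12.461 kb apart. The counts are per gene, so the transcripts cannot be told apart. Twist cKO UUO had raw counts of 6, 6 and 2, Snail cKO UUO of 6, 1 and 4, Myc cKO UUO of 8, 1 and 1 and WT UUO of 13, 23 and 1. Contralateral kidneys had counts of 0, 1 and 1, and healthy kidneys of 0, 0 and 0. The gene was thus near the limit of detection everywhere, and all but 1 of the 37 WT UUO counts came from replicates 1 and 2. A count of 0 in a healthy library allows up to 3 counts, or 0.0465 to 0.0614 CPM, a limit that covers counting error only. WT UUO replicate 3, at 0.0122 CPM, was under that limit, so no fold is given. In the fits that did test it, Cdkn2a was called higher in WT UUO than in healthy kidneys, with an adjusted p of 0.00683 with no filter in edgeR, 0.00253 in DESeq2, 0.0195 to 0.0223 without any 1 healthy library and 0.00172 without WT UUO replicate 3. Against contralateral kidneys the adjusted p was 0.0338 with no filter, 0.0353 in DESeq2 and 0.00714 without WT UUO replicate 3, but 0.057 to 0.0898 without any 1 contralateral library. The filter asks for enough counts in as many libraries as the smallest group holds. With 1 library left out this number was lower, and WT UUO replicates 1 and 2 alone met it. The gene thus entered those fits through the group where it was high, so their adjusted p cannot decide whether it rose. Without WT UUO replicate 1 or 2 the gene failed the filter and was not tested. No fit called it between a knockout group and WT UUO.

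Trp53 and its inhibitor moved differently. Trp53 (chromosome 11, 69580359 to 69591873, plus strand) had 27.1, 34.0 and 29.3 CPM in WT UUO, 12.2, 12.8 and 12.1 CPM in contralateral and 8.24, 9.26 and 11.0 CPM in healthy kidneys. The WT UUO libraries lay well above the unobstructed ones with little spread. Trp53 rose by 1.66 ± 0.13 (adjusted p = 1.25e-07) against healthy and by 1.28 ± 0.13 (adjusted p = 1.26e-06) against contralateral kidneys. RNA does not measure the p53 protein, whose amount is set mainly by its breakdown.

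Mdm2 (chromosome 10, 117688875 to 117710758, minus strand) encodes the ubiquitin ligase that marks p53 for breakdown and is itself a p53 target. It had 45.7, 49.5 and 44.0 CPM in WT UUO, 47.0, 52.7 and 44.9 CPM in contralateral and 52.3, 57.9 and 52.5 CPM in healthy kidneys. WT UUO lay just under healthy kidneys and overlapped contralateral ones. Mdm2 differed by -0.22 ± 0.09 (adjusted p = 0.0489) on the log2 scale in WT UUO against healthy kidneys, at the edge of the threshold, and the call was lost without any 1 healthy library and without WT UUO replicate 1 or 3 (adjusted p 0.0581 to 0.167), and it was not made by DESeq2 or limma voom. The sign turned with library totals in place of TMM (0.85). Against contralateral kidneys it was -0.05 ± 0.09 (adjusted p = 0.643).

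Among the genes of cell death, Bbc3 (chromosome 7, 16308393 to 16318205, plus strand), which encodes PUMA, a p53-induced activator of mitochondrial cell death, had 3.15, 4.90 and 4.31 CPM in WT UUO, 0.700, 1.02 and 0.771 CPM in contralateral and 0.671, 0.410 and 0.729 CPM in healthy kidneys. All WT UUO libraries were above all unobstructed ones. Bbc3 rose by 2.76 ± 0.27 (adjusted p = 7.21e-07) against healthy and by 2.31 ± 0.26 (adjusted p = 3.45e-06) against contralateral kidneys. Bax (chromosome 7, 45461697 to 45466898, minus strand) encodes the protein that PUMA helps to open pores in mitochondria. It had 19.0, 19.4 and 18.4 CPM in WT UUO, 13.6, 16.7 and 12.3 CPM in contralateral and 12.5, 13.52 and 12.8 CPM in healthy kidneys. The WT UUO libraries were tightly grouped above the others, and the step was far smaller than that of Bbc3. Bax rose by 0.55 ± 0.12 (adjusted p = 0.000787) and 0.42 ± 0.11 (adjusted p = 0.00656) in WT UUO against healthy and contralateral kidneys. Another coding gene model, Gm45808, overlaps Bax on the same strand over 915 bases, so reads there may have been lost or shared.

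Phlda3 (chromosome 1, 135766119 to 135769136, plus strand), a p53 target that restrains AKT signalling, had 16.6, 11.8 and 10.05 CPM in WT UUO, 1.84, 2.45 and 2.71 CPM in contralateral and 1.79, 1.31 and 1.67 CPM in healthy kidneys. The order of the WT UUO libraries was that of Cdkn1a and Cdkn2b, with replicate 1 highest and replicate 3 lowest. Phlda3 rose by 3.01 ± 0.29 (adjusted p = 7.1e-07) against healthy and by 2.46 ± 0.28 (adjusted p = 4.04e-06) against contralateral kidneys.

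Gdf15 (chromosome 8, 70629393 to 70632456, minus strand) encodes a secreted stress hormone of the TGF-beta superfamily that p53 and the integrated stress response both raise. It had 4.40, 10.8 and 6.93 CPM in WT UUO, 1.95, 4.37 and 1.43 CPM in contralateral and 1.77, 1.54 and 2.31 CPM in healthy kidneys. WT UUO replicate 1, the highest for Cdkn1a, Cdkn2b and Phlda3, was the lowest of its group here, close to contralateral replicate 2. Gdf15 rose by 1.97 ± 0.41 (adjusted p = 0.000884) against healthy and by 1.52 ± 0.41 (adjusted p = 0.00553) against contralateral kidneys, and by 2.13 against contralateral kidneys without contralateral replicate 2.

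Ccng1 (chromosome 11, 40748552 to 40755311, minus strand), which encodes cyclin G1, a p53 target that helps to activate MDM2, went the other way. It had 127, 135 and 121 CPM in WT UUO, 215, 324 and 215 CPM in contralateral and 269, 316 and 194 CPM in healthy kidneys. Every WT UUO library was below every unobstructed one, and contralateral and healthy replicate 2, in which counts of the Y-linked Ddx3y exceeded those of Xist, were the highest. Ccng1 fell by 1.02 ± 0.19 (adjusted p = 0.000252) on the log2 scale against healthy and by 0.98 ± 0.19 (adjusted p = 0.000403) against contralateral kidneys. This fall is relative to the typical gene: with library totals in place of TMM the values were 0.09 and 0.09. Per kilobase of exon Ccng1 was the most abundant of the 10 genes in every group, at 36.4 ± 2.06 CPM per kb in WT UUO and 73.9 ± 17.6 CPM per kb in healthy kidneys (SD, n = 3), against 4.50 ± 1.67 and 0.688 ± 0.418 CPM per kb for Cdkn1a.

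Markers of other cell types differed between the same libraries. The summed level of 6 macrophage markers was 431 to 666 CPM in WT UUO and 64.9 to 92.1 CPM in unobstructed kidneys, and that of 4 myofibroblast markers was 1046 to 2022 CPM in WT UUO and 89.7 to 139.97 CPM in unobstructed kidneys. Proximal tubule markers summed to 624 to 1446 CPM in WT UUO, and no gene of these 3 lists was at 0 in any library. WT UUO replicate 1, the highest library for Cdkn1a, Cdkn2b and Phlda3, had the highest sum of 4 urothelial markers, 220 CPM against 57.7 and 18.1 CPM in replicates 2 and 3, and the lowest sum of proximal tubule markers. The same library was also the highest of its group for myofibroblast, endothelial, neutrophil, adipocyte and collecting duct markers. It was the lowest for loop and distal tubule, podocyte and T cell markers. The part of these cell types in the results was not tested. In RNA of a whole kidney, fewer cells of a type and less RNA per cell cannot be told apart.

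Contralateral and healthy kidneys were compared for any difference in the kidney opposite the obstruction. Contralateral replicates 1 and 2 carried Cre and no floxed allele, while all healthy mice were Cre-negative with floxed Twist alleles. The groups thus differed in part in genotype too. None of the 9 genes passed edgeR's threshold, where 1.96% of all genes rose and 0.299% fell. DESeq2 and limma voom also called 0 (1296 and 240 over all genes). Of all 21050 genes 3664 had an unadjusted p under 0.05 by edgeR, and of the 9 genes 1 did. That gene was Trp53, at 0.38 ± 0.13 (adjusted p = 0.132), with all contralateral libraries above all healthy ones. Without healthy replicate 3, the highest healthy library, its adjusted p was 0.0479. Phlda3 was 0.55 ± 0.28 (adjusted p = 0.327), also with no overlap between the groups.

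**Figure D2:**
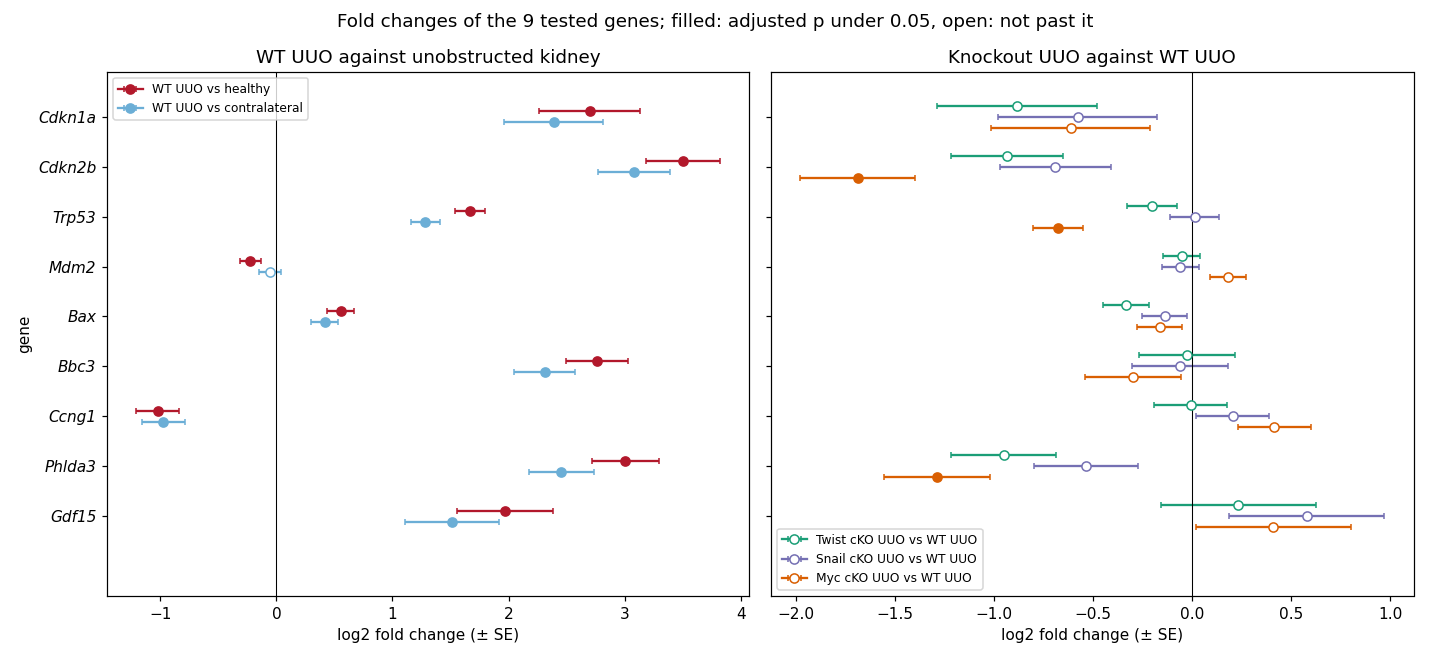
Log2 fold changes with SE (x axis) of the 9 tested genes (y axis) in WT UUO against unobstructed kidneys (left) and in knockout UUO against WT UUO (right); filled points passed an adjusted p under 0.05 in edgeR's test and open points did not. Cdkn2b, Phlda3 and Trp53 are the filled points on the right, all in Myc cKO UUO.

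The Myc knockout was addressed by Myc cKO UUO against WT UUO. Cdkn2b, Phlda3 and Trp53 fell and no gene of the 9 rose, where 6.91% of all genes fell and 5.31% rose. The median log2 fold change of the 9 genes was -0.30, against 0.00 over all genes tested. Cdkn2b had 2.69, 1.58 and 1.54 CPM in Myc cKO UUO and 8.90, 5.35 and 4.50 CPM in WT UUO, a difference of -1.69 ± 0.29 (adjusted p = 0.00377). Phlda3 had 7.95, 4.56 and 3.24 CPM in Myc cKO UUO and 16.6, 11.8 and 10.05 CPM in WT UUO, a difference of -1.29 ± 0.27 (adjusted p = 0.00886). Trp53 had 22.5, 18.4 and 15.7 CPM in Myc cKO UUO and 27.1, 34.0 and 29.3 CPM in WT UUO, a difference of -0.68 ± 0.13 (adjusted p = 0.00525). For each of these 3 genes all Myc cKO UUO libraries lay below all WT UUO libraries, and Myc cKO UUO replicate 1 was the nearest to them.

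The other 6 genes did not pass the threshold. Cdkn1a had 10.9, 6.35 and 14.2 CPM in Myc cKO UUO against 22.3, 15.2 and 10.5 CPM in WT UUO, and the groups overlapped (-0.61 ± 0.40, adjusted p = 0.349). Ccng1 had 181, 156 and 175 CPM in Myc cKO UUO, all above the WT UUO libraries (0.42 ± 0.18, adjusted p = 0.156). Gdf15 was at 0.41 ± 0.39 (adjusted p = 0.54) and Mdm2 at 0.18 ± 0.09 (adjusted p = 0.217), where Mdm2 was at -0.08 with library totals. Without WT UUO replicate 1 the adjusted p of Phlda3 was 0.0534, in a fit that called 797 genes in all, against 2572 in the main fit. With only these 2 groups in the fit none of the 3 genes was called (adjusted p 0.0846, 0.115 and 0.0944 for Cdkn2b, Phlda3 and Trp53). That fit called 5 genes in all, so nearly every gene lost its call there. Without WT UUO replicate 1 and Myc cKO UUO replicate 3 together, an alternative chosen after seeing the data, Trp53 alone was called (adjusted p = 0.0655 for Cdkn2b and 0.120 for Phlda3).

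Markers of other cells moved alongside. The sum of the myofibroblast markers was 991, 458 and 242 CPM in replicates 1, 2 and 3 of Myc cKO UUO, the order of Phlda3, Cdkn2b and Trp53 in the same libraries, and 2022, 1908 and 1046 CPM in WT UUO. The macrophage markers summed to 456, 386 and 350 CPM in Myc cKO UUO, the same order, and to 431 to 666 CPM in WT UUO. Urothelial markers had this order too, and proximal tubule, loop and distal tubule, collecting duct, podocyte and neutrophil markers had the reverse. In WT UUO Cdkn2b and Phlda3 followed the order of the myofibroblast markers and Trp53 did not. The 2 groups did not overlap for the myofibroblast markers, which were lower in Myc cKO UUO. They did not overlap for proximal tubule markers either, at 2042 to 3624 CPM in Myc cKO UUO and 624 to 1446 CPM in WT UUO. The same held for 5 endothelial markers, at 254 to 274 CPM in Myc cKO UUO and 282 to 390 CPM in WT UUO. The part of these cells in the lower levels was not tested. The Myc line also differed from the WT UUO mice in its Cre and its strain mix, and these cannot be told apart from the loss of Myc. The strain mix of the Snail line differed in the same way.

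The Twist knockout was addressed by Twist cKO UUO against WT UUO. No gene of the 9 passed edgeR's threshold, where 2.97% of all genes rose and 2.31% fell. Of the 9 genes 4 had an unadjusted p under 0.05, DESeq2 called 2 and limma voom 1. Over all genes these numbers were 4811, 2463 and 1495. Phlda3 had 6.90, 7.12 and 5.83 CPM in Twist cKO UUO and 16.6, 11.8 and 10.05 CPM in WT UUO (-0.95 ± 0.27, adjusted p = 0.0509). Cdkn2b had 3.38, 3.47 and 2.95 CPM in Twist cKO UUO and 8.90, 5.35 and 4.50 CPM in WT UUO (-0.94 ± 0.28, adjusted p = 0.0664). Both genes lay below all WT UUO libraries, at the edge of the threshold, and both were lower past it without WT UUO replicate 3 (adjusted p = 0.0449 for Phlda3 and 0.0466 for Cdkn2b). With any other 1 library left out neither was called, and the values weakened to as little as -0.71 for Phlda3 and -0.58 for Cdkn2b. Without WT UUO replicate 1 only 13 genes in all were called, against 1111 in the main fit. Bax had 16.8, 14.2 and 14.1 CPM in Twist cKO UUO, below all WT UUO libraries (-0.33 ± 0.11, adjusted p = 0.1). Cdkn1a had 7.25, 7.78 and 11.0 CPM, overlapping WT UUO at the top (-0.88 ± 0.40, adjusted p = 0.208), and Trp53 had 26.4, 25.4 and 26.8 CPM (-0.20 ± 0.13, adjusted p = 0.362). Marker sums of 7 lists did not overlap between these groups. With 3 libraries a group such a gap can arise without a difference, and its share over all genes is not given here. Myofibroblast markers summed to 546 to 707 CPM in Twist cKO UUO and 1046 to 2022 CPM in WT UUO, and macrophage markers to 316 to 376 CPM in Twist cKO UUO and 431 to 666 CPM in WT UUO. Proximal tubule markers were higher, at 2141 to 3585 CPM in Twist cKO UUO and 624 to 1446 CPM in WT UUO, as were 4 markers of the loop and distal tubule, at 2112 to 2973 CPM in Twist cKO UUO and 801 to 1816 CPM in WT UUO. Endothelial, neutrophil and adipocyte markers were the other lists, all lower in Twist cKO UUO. The part of these cells in the values was not tested.

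Snail cKO UUO against WT UUO gave 0 calls among the 9 genes by edgeR, DESeq2 and limma voom, with 1 gene at an unadjusted p under 0.05. In this comparison 0.162% of all genes rose and 0.138% fell by edgeR, so few genes of any kind passed. Over all genes 3130 had an unadjusted p under 0.05, and DESeq2 called 773 and limma voom 182. Phlda3 had 8.52, 9.13 and 8.88 CPM in Snail cKO UUO, below all WT UUO libraries (-0.54 ± 0.26, adjusted p = 0.362). Cdkn2b had 4.97, 3.77 and 2.88 CPM (-0.69 ± 0.28, adjusted p = 0.269), Cdkn1a 10.6, 13.2 and 8.37 CPM (-0.58 ± 0.40, adjusted p = 0.543) and Gdf15 12.2, 14.7 and 6.10 CPM (0.58 ± 0.39, adjusted p = 0.527), each overlapping WT UUO. Trp53, at 32.2, 29.1 and 29.8 CPM in Snail cKO UUO, lay among the WT UUO libraries.

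Each knockout group was also set against contralateral kidneys, which all 3 comparisons share. In each of them 6 of the 9 genes rose (Cdkn1a, Cdkn2b, Trp53, Gdf15, Phlda3 and Bbc3) and Ccng1 fell, though not with library totals in place of TMM (-0.08, 0.19 and 0.25), where 21.5, 23.7 and 22% of all genes rose and 21.4, 22.8 and 22.5% fell in Twist, Snail and Myc cKO UUO. Cdkn2b was higher by 2.14 ± 0.30, 2.39 ± 0.30 and 1.39 ± 0.30 (log2 ± SE) in Twist, Snail and Myc cKO UUO than in contralateral kidneys, and Phlda3 by 1.502 ± 0.27, 1.92 ± 0.28 and 1.17 ± 0.27. Cdkn1a was higher by 1.503 ± 0.42, 1.81 ± 0.42 and 1.77 ± 0.42, and Bbc3 by 2.29 ± 0.26, 2.25 ± 0.26 and 2.01 ± 0.26. Trp53 was higher by 1.08 ± 0.13, 1.30 ± 0.13 and 0.61 ± 0.13.

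Bax, which rose in WT UUO, did not pass the threshold against contralateral kidneys in any knockout group with TMM scaling, nor between any knockout group and WT UUO. Against contralateral kidneys it was at 0.08 ± 0.11 (adjusted p = 0.594) in Twist, 0.28 ± 0.11 (adjusted p = 0.0608) in Snail and 0.25 ± 0.11 (adjusted p = 0.088) in Myc cKO UUO. Without contralateral replicate 2 it was called in Snail (adjusted p = 0.00928) and Myc cKO UUO (adjusted p = 0.0144), and without Myc cKO UUO replicate 2 in Myc cKO UUO (adjusted p = 0.0375). The scaling decided this call too. With library totals Bax was higher by 0.99, 1.23 and 1.06 (log2) in Twist, Snail and Myc cKO UUO (adjusted p 5.91e-06 to 5.2e-05), and by 0.43, 0.64 and 0.59 with mitochondrially encoded genes also left out (adjusted p 0.000268 to 0.00564). Upper-quartile scaling called it in Snail (adjusted p = 0.00586) and Myc cKO UUO (adjusted p = 0.00466), as did a filter of 1 CPM in 3 libraries (adjusted p = 0.0332 and 0.0387). Gdf15 was higher by 1.75 ± 0.41, 2.09 ± 0.41 and 1.93 ± 0.41 in Twist, Snail and Myc cKO UUO, and by 2.36, 2.70 and 2.53 without contralateral replicate 2, the library with the most Gdf15 among the unobstructed ones. Ccng1 differed by -0.98 ± 0.19, -0.77 ± 0.18 and -0.56 ± 0.18 on the log2 scale, and in Myc cKO UUO the call was lost without contralateral replicate 2 (adjusted p = 0.149) or Myc cKO UUO replicate 2 (adjusted p = 0.0901).

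Between knockouts, Trp53 was lower in Myc cKO UUO than in Snail cKO UUO (-0.69 ± 0.13, adjusted p = 0.0134) and was the only 1 of the 9 genes called, where 0.523% of all genes rose and 1.92% fell. The call was lost without Snail cKO UUO replicate 1 or 3 or without Myc cKO UUO replicate 2 (adjusted p = 0.0844, 0.0577 and 0.06), and 3 genes were called without Myc cKO UUO replicate 1. Over all genes those fits called 57, 91, 153 and 691, against 515 in the main fit. Cdkn2b (-0.998 ± 0.29, adjusted p = 0.0798) and Phlda3 (-0.75 ± 0.27, adjusted p = 0.155) were below all Snail cKO UUO libraries without passing the threshold. Myc cKO UUO against Twist cKO UUO gave 0 calls by edgeR, where 0.442% of all genes rose and 2.55% fell. Of the 9 genes 4 had an unadjusted p under 0.05, and 1 each was called by DESeq2, by limma voom and without Myc cKO UUO replicate 1. Over all genes these numbers were 3698, 1599, 780 and 450. Trp53 was the nearest (-0.47 ± 0.13, adjusted p = 0.0567), followed by Cdkn2b (-0.75 ± 0.29, adjusted p = 0.175). Twist cKO UUO against Snail cKO UUO gave 0 calls by edgeR, DESeq2 and limma voom and 0 at an unadjusted p under 0.05, where 0.0855% of all genes rose and 0.0855% fell by edgeR. Over all genes 1373 had an unadjusted p under 0.05, and DESeq2 called 152 and limma voom 42.

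The order of the group means differed from gene to gene. Phlda3 averaged 8.84 ± 0.307 CPM in Snail, 6.62 ± 0.691 CPM in Twist and 5.25 ± 2.43 CPM in Myc cKO UUO, all below the 12.8 ± 3.37 CPM of WT UUO (SD, n = 3) and above contralateral and then healthy kidneys, and its Twist and Myc cKO UUO libraries overlapped. Cdkn2b had the same order, with overlap between WT UUO and Snail cKO UUO and between Snail and Twist cKO UUO. Trp53 had Snail cKO UUO (30.4 ± 1.62 CPM) beside WT UUO (30.1 ± 3.50 CPM), with Twist (26.2 ± 0.705 CPM) and Myc cKO UUO (18.9 ± 3.42 CPM) each apart below them. Cdkn1a and Bbc3 had a step between the obstructed and the unobstructed groups and overlap between neighbours among the obstructed ones.

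Gdf15 was highest in Snail cKO UUO (11.0 ± 4.42 CPM) and lowest of the obstructed groups in WT UUO (7.36 ± 3.20 CPM), and all 4 obstructed groups overlapped in turn. Mdm2 was lowest in Snail cKO UUO (44.6 ± 3.01 CPM) and highest in healthy kidneys (54.2 ± 3.14 CPM), with each group overlapping the next.

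Other genes of these pathways were followed as 7 lists, to be read against the 29.2% of all genes that rose and 27.1% that fell in WT UUO against healthy kidneys. Of 25 other p53 targets, 10 rose and 3 fell in WT UUO against healthy kidneys, with a median of 0.18, against 0.05 over all genes tested. Apaf1, which forms the apoptosome, rose by 2.05 ± 0.14 (adjusted p = 5.14e-08), the receptor kinase gene Epha2 by 2.15 ± 0.17 (adjusted p = 1.36e-07), the kinase gene Plk2 by 2.15 ± 0.19 (adjusted p = 3.68e-07) and the death receptor gene Tnfrsf10b by 2.08 ± 0.21 (adjusted p = 1.08e-06). The other 12 did not pass, so the list did not move as 1 group. Of 8 p53 regulators and DNA damage kinases, 3 rose and 1 fell (median -0.03), among them the checkpoint kinase genes Chek1 (1.801 ± 0.27, adjusted p = 4.16e-05) and Chek2 (0.74 ± 0.14, adjusted p = 0.000336) and the ubiquitin ligase gene Rchy1 (-0.45 ± 0.08, adjusted p = 0.000296).

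Of 11 other genes of the BCL2 family, 6 rose and 3 fell (median 0.52). The risers with the smallest p encode proteins that promote cell death or, for Mcl1, oppose it: Bcl2l11 rose by 1.37 ± 0.11 (adjusted p = 1.69e-07), Bmf by 1.96 ± 0.18 (adjusted p = 5.03e-07), Bak1 by 1.59 ± 0.16 (adjusted p = 1.24e-06) and Mcl1 by 0.70 ± 0.13 (adjusted p = 0.000343). Of 4 other inhibitors of cell cycle kinases only Cdkn2d was called (0.38 ± 0.14, adjusted p = 0.0265), and the call was lost without healthy replicate 2 or 3 or any WT UUO replicate (adjusted p 0.0514 to 0.092), so the rise of Cdkn1a and Cdkn2b was not shared by Cdkn1b, Cdkn1c and Cdkn2c at this threshold. Of 12 cyclin, cyclin kinase and RB family genes, 8 rose and 3 fell (median 0.62). Cdk4 and Cdk6, the targets of p15 and p16, rose by 0.77 ± 0.08 (adjusted p = 8.41e-07) and 1.75 ± 0.17 (adjusted p = 8.67e-07), Cdk2 by 0.88 ± 0.10 (adjusted p = 4.22e-06) and the cyclin gene Ccne1 by 3.11 ± 0.39 (adjusted p = 7.06e-06).

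Genes of dividing cells were up in the same kidneys as the inhibitors. All 8 cell division genes rose (median 4.11), Ccnb1 by 4.72 ± 0.33 (adjusted p = 5.97e-08), Cdk1 by 4.14 ± 0.30 (adjusted p = 7.78e-08), Plk1 by 4.14 ± 0.33 (adjusted p = 1.35e-07) and Mki67 by 3.72 ± 0.31 (adjusted p = 2.58e-07). Whether the same or different cells carried them cannot be read from RNA of the whole kidney. Of 11 secretory and lamin genes often used as signs of senescence, 7 rose and 1 fell (median 2.50). The chemokine genes Cxcl1 and Ccl2 rose by 5.70 ± 0.51 (adjusted p = 4.43e-07) and 5.600 ± 0.52 (adjusted p = 6.64e-07), Plaur by 2.50 ± 0.14 (adjusted p = 1.11e-08), and Lmnb1, which encodes lamin B1 and is known to fall in senescent cells, rose by 2.15 ± 0.21 (adjusted p = 6.59e-07). The gene that fell was Glb1, the source of the lysosomal beta-galactosidase that stains senescent cells, chosen for mention after its value was seen (-0.96 ± 0.35, adjusted p = 0.0286); the call was lost without healthy replicate 1 or 2 or WT UUO replicate 1 or 3 (adjusted p 0.0673 to 0.0991).

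**Figure D3:**
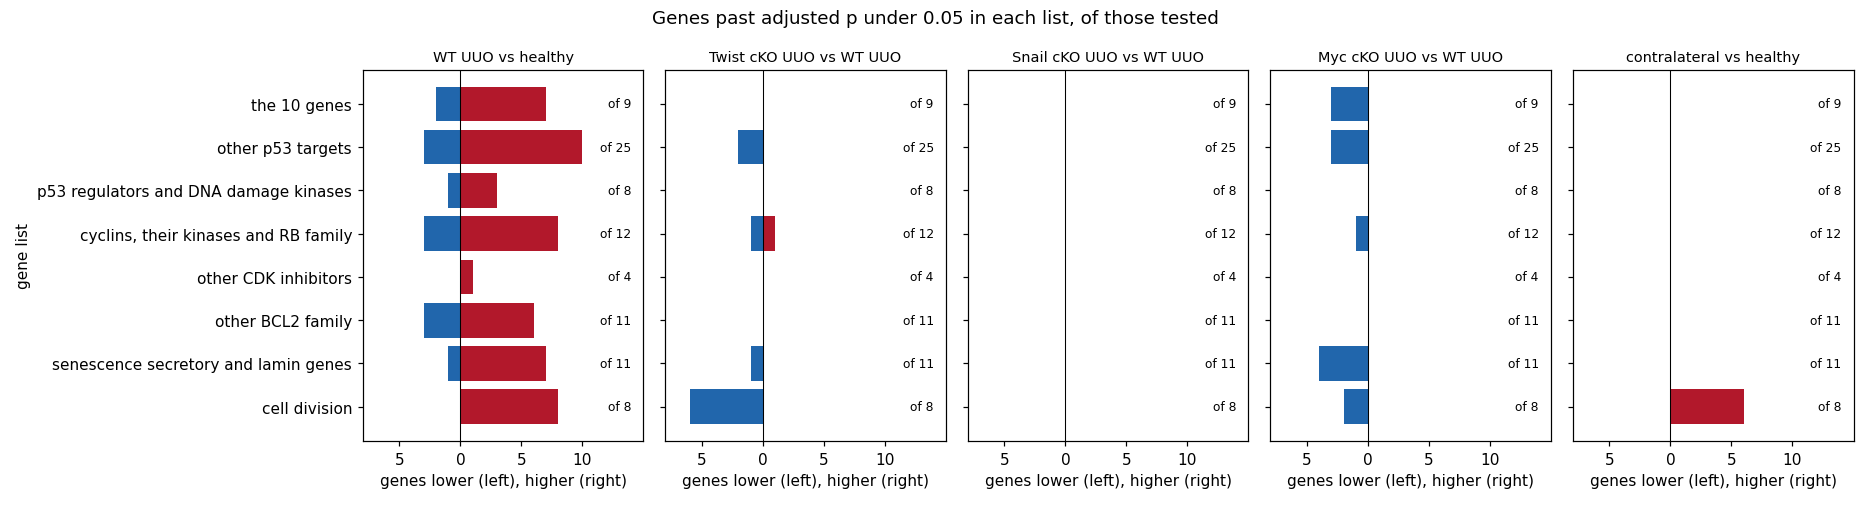
Number of genes past an adjusted p under 0.05 in edgeR's test (x axis, lower to the left and higher to the right) in each gene list (y axis), with the number tested at the right, in 5 comparisons. The lists have 13 of 25 other p53 targets called in WT UUO against healthy kidneys, where 29.2% of all genes rose and 27.1% fell. In Twist, Snail and Myc cKO UUO against WT UUO the numbers were 2, 0 and 3. Of all genes 2.97, 0.162 and 5.31% rose and 2.31, 0.138 and 6.91% fell in these comparisons.

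In contralateral against healthy kidneys the lists held 0 calls, except cell division, where 6 of 8 genes rose (median 1.804; 3 without healthy replicate 2 and up to 7 with another library left out; 8 by DESeq2 and 3 by limma voom), where 1.96% of all genes rose, such as Plk1 (2.25 ± 0.31, adjusted p = 0.0057), Ccnb1 (2.27 ± 0.32, adjusted p = 0.0057), Cdk1 (1.86 ± 0.29, adjusted p = 0.00714) and Mki67 (1.75 ± 0.29, adjusted p = 0.0103). Of the other 6 lists 9 genes in all had an unadjusted p under 0.05 by edgeR, while DESeq2 called 4 and limma voom 0. Over all genes 3664 of 21050 had an unadjusted p under 0.05 by edgeR, and DESeq2 called 1296 and limma voom 240. The main fit called 476 genes in all, against 75 with a covariate for Cre and 3 with only these 2 groups. Contralateral and healthy mice differed in part in genotype, and its part in the rise of the cell division genes was not tested.

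In Myc cKO UUO against WT UUO, where 6.91% of all genes fell and 5.31% rose, 3 of 25 other p53 targets fell and none rose (median -0.10): Epha2 (-0.71 ± 0.16, adjusted p = 0.0134), Plk2 (-0.80 ± 0.18, adjusted p = 0.0134) and Tnfrsf10b (-0.64 ± 0.20, adjusted p = 0.0492). Of the secretory and lamin genes 4 of 11 fell (median -0.63), among them Plaur (-0.89 ± 0.13, adjusted p = 0.00186), Lmnb1 (-0.97 ± 0.20, adjusted p = 0.00771) and Igfbp3 (-0.97 ± 0.29, adjusted p = 0.045). Cdk4 (-0.34 ± 0.08, adjusted p = 0.0119) and the cell division genes Plk1 (-1.31 ± 0.28, adjusted p = 0.00987) and Ccna2 (-0.76 ± 0.22, adjusted p = 0.0361) also fell. The counts depended on the tool: of the other p53 targets edgeR called 3, DESeq2 6 and limma voom 4, of the secretory and lamin genes 4, 4 and 3, of the cyclin list 1, 6 and 4, and of the 8 cell division genes 2, 7 and 7. Over all genes edgeR called 2572, DESeq2 3816 and limma voom 2876. When 1 library was left out in turn, the falls numbered 0 to 6 among the p53 targets (0 without WT UUO replicate 1 or Myc cKO UUO replicate 3, 6 without Myc cKO UUO replicate 1), 2 to 4 among the secretory and lamin genes (2 without WT UUO replicate 1 or Myc cKO UUO replicate 2 or 3) and 1 to 2 among the cell division genes (1 without any 1 library but Myc cKO UUO replicate 1). Cdk4 was 1 of 0 to 3 falls in its list, with 0 without WT UUO replicate 2 or Myc cKO UUO replicate 2.

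In Twist cKO UUO against WT UUO, where 2.31% of all genes fell and 2.97% rose, 2 of the other p53 targets fell (median -0.15), Apaf1 (-0.62 ± 0.14, adjusted p = 0.0256) and Plk2 (-0.81 ± 0.18, adjusted p = 0.0286), as did Plaur (-0.46 ± 0.13, adjusted p = 0.0481) and Cdk4 (-0.31 ± 0.08, adjusted p = 0.0344), while Ccnd1, the cyclin D1 gene, rose (0.70 ± 0.18, adjusted p = 0.0402). Of 8 cell division genes 6 fell (median -1.24), such as Ccnb1 (-1.40 ± 0.28, adjusted p = 0.0193) and Ccna2 (-1.12 ± 0.22, adjusted p = 0.0193). DESeq2 and limma voom each called all 8 cell division genes, and of the other p53 targets 5 and 3. Over all genes edgeR called 1111, DESeq2 2463 and limma voom 1495. The median of the cell division genes stayed between -1.33 and -1.09 with any 1 library left out, while the counts turned on single libraries: leaving out 1 at a time gave 0 to 5 cell division genes and 0 to 4 other p53 targets, with 0 of both without WT UUO replicate 1 or Twist cKO UUO replicate 2 and the most without WT UUO replicate 3. The p53 targets also had 0 without Twist cKO UUO replicate 1 or 3 and 1 without WT UUO replicate 2, while the cell division genes had 0 without WT UUO replicate 2. Of the cell division genes 1 was called when Twist cKO UUO replicate 1 was left out and 2 when it was replicate 3. The secretory and lamin list had 0 without any 1 library but WT UUO replicate 3, and the cyclin list had no fall in any of these fits and a rise only without Twist cKO UUO replicate 1. In Snail cKO UUO against WT UUO the 7 lists held 0 calls by edgeR, with 17 genes at an unadjusted p under 0.05, 9 of them outside the cell division list. Of the list genes DESeq2 called 6 and limma voom 4. Over all genes 3130 of 21050 had an unadjusted p under 0.05 by edgeR, and DESeq2 called 773 and limma voom 182.

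Over the 12 obstructed libraries, the genes whose level (log2 of TMM-scaled CPM plus 0.5) was most like that of Cdkn1a were, among 13439 genes whose average log2 CPM reached 1, Akap12 (Pearson r = 0.93, Spearman rho = 0.95), Hpgds (r = 0.88), Rpl4 (r = 0.87; near-identical copies of this gene make its counts uncertain), Nsun2 (r = 0.87) and Adarb1 (r = 0.86). Akap12 encodes a scaffold of protein kinase A and Hpgds a prostaglandin D synthase. Akap12 had 121, 147 and 182 CPM in replicates 1, 2 and 3 of Twist cKO UUO, 169, 220 and 119 CPM in Snail cKO UUO, 156, 113 and 218 CPM in Myc cKO UUO and 243, 223 and 168 CPM in WT UUO. Within each group the order of these 3 libraries was the order of Cdkn1a. Without WT UUO replicate 1 and Myc cKO UUO replicate 2, the libraries farthest from the median of Cdkn1a, r was 0.94 for Akap12, 0.80 for Hpgds and 0.62 to 0.70 for the other 3. These are descriptions: the highest of many r values is high by selection, and the points share groups and library scaling.

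**Figure D4:**
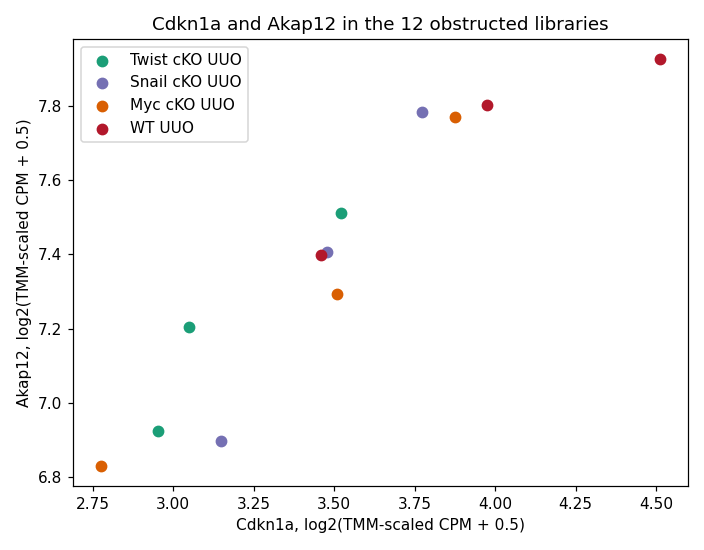
Cdkn1a (x axis) and Akap12 (y axis), both as log2 of TMM-scaled CPM plus 0.5, in the 12 obstructed libraries, coloured by group. The points rise together with r = 0.93, and WT UUO replicate 1 is highest for both.

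The other 9 genes were less like Cdkn1a over these libraries. Bax had r = 0.61, Cdkn2b 0.58, Phlda3 0.49 and Cdkn2a 0.45, and Trp53 had 0.17. The r of Cdkn2a, a gene near the limit of detection, was 0.23 without the 2 libraries farthest from the median of Cdkn1a. For Cdkn2b and Phlda3 the likeness rested on the 2 farthest libraries, since r was -0.01 and -0.04 without them. Gdf15 had r = -0.19 with all 12 libraries and 0.60 without those 2. Mdm2 had r = 0.29, Ccng1 -0.03 and Bbc3 -0.05, so the 9 values ran from -0.19 to 0.61.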

How the data were processed

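RNA of 18 whole-kidney pieces was extracted with TRIzol, and a stranded whole-transcriptome kit gave libraries for paired reads on a NextSeq500, per the labels' protocols. The authors deposited raw counts per gene symbol, and a normalized signal that was checked to be those counts divided by 1 size factor per library (largest relative deviation 9.85e-15); it served for that check only. Build mm10, HTSeq, bcl2fastq 1.8.4 and DESeq2 are named in the submitters' processing notes. The sources used here do not name the aligner, the annotation or how strand was treated. Of the columns, 18 matched a sample and 6 matched none and entered no step.

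In edgeR 4.0.16 (R 4.3.3) the raw counts went through filterByExpr (21050 genes), scaling by trimmed means of M-values (TMM) and a robust quasi-likelihood model of 18 libraries and 6 group means (12 residual degrees of freedom), two-sided, with Benjamini-Hochberg adjustment over all genes tested and a threshold of 0.05. The text takes its adjusted p-values and its fold changes (log2 ± SE, 3 libraries a group) from this model. Of the 10 genes 9 passed the filter. The 10 genes and the lists were chosen with earlier results of these data known. Named are the 10 genes, in each list the called genes of smallest p (up to 4), and the 5 genes most like Cdkn1a; 1 gene that this rule names is not reported here. Tigar, Pidd1 and Adgre1 were found under older symbols. Positions and exon lengths came from GENCODE M21, promoters from RefSeq, both on GRCm38, the assembly of mm10. The steps were tested on simulated counts. Alternatives were other scalings and filters, DESeq2 1.42.0, limma 3.58.1 (voom), a covariate for Cre or for sex, fits of 2 groups alone, and each library left out; 4 more were added after the data were seen (2 scalings by library totals, both WT UUO replicate 1 and Myc cKO UUO replicate 3 left out, and a paired fit of WT UUO and contralateral libraries matched by genotype and sex).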

Additional observations from a re-analysis of the deposited data

How the results depend on the processing

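Of 1226 recomputed fold changes for 65 gene and comparison pairs, 1153 kept direction and side of the threshold, 31 passed it newly, 30 lost it and 12 reversed. With library totals and no TMM factor, Mdm2 was 0.85 in WT UUO against healthy, 0.998 in WT UUO against contralateral and -0.083 in Myc cKO UUO against WT UUO kidneys, and Ccng1 was 0.087 in WT UUO against healthy, 0.086 against contralateral, and 0.19 and 0.25 in Snail and Myc cKO UUO against contralateral kidneys; with mitochondrially encoded genes also left out, Mdm2 was 0.14 and 0.29 in WT UUO against healthy and contralateral kidneys. Mdm2 in WT UUO against contralateral kidneys was 0.10 under upper-quartile scaling and -0.11 (without WT UUO replicate 2) to 0.015 (without contralateral replicate 2) when 1 library was left out, and Bax in Twist cKO UUO against contralateral kidneys was -0.0096 (without contralateral replicate 3) to 0.217 (without contralateral replicate 2). These scalings move the median of all genes by their construction; the cause of the other reversals was not tested.

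For the number of the 10 genes called, leaving out 1 library gave 0 to 1 in contralateral against healthy, 0 to 2 in Twist and 2 to 3 in Myc cKO UUO against WT UUO, 0 to 1 in Myc against Twist and 0 to 3 in Myc against Snail cKO UUO. It gave 8 to 9 in WT UUO against healthy and contralateral kidneys, but not of the same genes: without any 1 healthy library or WT UUO replicate 3, the 9 against healthy kidneys held Cdkn2a and not Mdm2, and the 9 against contralateral kidneys without WT UUO replicate 3 held Cdkn2a. In those fits Cdkn2a passed the filter through WT UUO replicates 1 and 2 alone. In Twist cKO UUO against WT UUO the number was 1 under upper-quartile scaling, a CPM of at least 1 in 3 libraries, the Cre covariate, the sex covariate, limma voom and only the 2 groups, and 2 with DESeq2. In Myc cKO UUO against WT UUO it was 0 with only the 2 groups and 1 without WT UUO replicate 1 and Myc cKO UUO replicate 3. Over all genes those fits called 5 and 287, against 2572 in the main fit. In Myc against Twist cKO UUO the number of the 10 genes called was 1 with the sex covariate, limma voom and DESeq2, and in Myc against Snail cKO UUO it was 2 with DESeq2 and 0 with only the 2 groups. The fit of only Myc and Snail cKO UUO called 16 genes in all, against 515 in the main fit. The causes were not tested. The labels pair no libraries, but the 3 WT UUO and 3 contralateral libraries match 1 to 1 in Cre, floxed allele and sex, and whether matched kidneys came from the same mouse is not given. Deviations from the group means correlated within each match (r = 0.20, 0.44 and 0.26 over 21050 genes); the part of sex and genotype in this was not tested. A fit of these 6 libraries with the match as a replicate block, chosen after seeing the data, called 8 of the 10 genes and changed no call. For the other comparisons no paired analysis was possible because their groups do not match in this way. Low counts limit Cdkn2a, and 3 libraries per group limit all comparisons between obstructed groups.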
